A study of Mus musculus with 20 samples.

Results

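Primary cilia are built and supplied by intraflagellar transport, in which trains of IFT-B and IFT-A subunits are carried to the tip by kinesin-2 and back to the base by dynein-2. The BBSome is a coat-like complex that rides on these trains and moves membrane proteins out of the cilium, and the transition zone at the base gates what may enter. In the retina the connecting cilium and the outer segment of each photoreceptor are a modified primary cilium, and inherited loss of many of these genes in humans gives Bardet-Biedl syndrome, Joubert syndrome or isolated retinal degeneration.

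The genes described here are the 34 whose symbols in the deposited tables are Bbs, Bbip1, Ift, Tctn, Dync2 or Kif3a, Kif3b and Kif3c names, together with Ttc8, Arl6 and Cep290. They were taken from 19368 genes listed for the oxygen-induced retinopathy (OIR) experiment and 19102 listed for the Ceapin-A7 experiment, and all 34 passed the filter on low values in both. By role, 8 are BBSome core subunits, 3 assist BBSome assembly or recruitment, 11 belong to IFT-B, 3 to IFT-A, 2 to dynein-2 and 3 to kinesin-2, and 4 act at the transition zone. The names select part of each complex, since subunits with other kinds of symbol, such as Wdr19, Wdr35 and Ttc26, are not matched by them and are given as separate lists.

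Whole mouse retinas were profiled by bulk RNA-Seq in 20 libraries, 5 in each of 4 groups. In the OIR experiment, Atf6+/+ mice (labelled WT) and Atf6-/- mice (labelled Atf6 knockout) were kept in 75% oxygen from P7 to P12, returned to room air and sampled at P17. The Atf6-/- allele is carried in every cell of the body and ends the reading frame early by a stop codon, so Atf6 reads can persist. In the Ceapin-A7 experiment, wild type P30 mice received 1 µL into the vitreous of both eyes, either 10 µM Ceapin-A7, a small molecule that keeps ATF6 from being activated, or vehicle (labelled PBS), and retinas were taken 24 h later. Both solutions were saline with DMSO, at shares that the study's methods give as unequal, so the drug and the DMSO share cannot be told apart. No P17 library from mice kept in room air throughout and no P30 library from uninjected mice was analysed here. Both sexes and several litters were used, and no source ties replicate numbers to litters.

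The values are FPKM, fragments divided by transcript length and by the mapped fragments of the library, and the tables hold no library totals in reads, though the study's methods state a nominal depth that is the same for all samples. Relative depth was estimated for 18 libraries from the ratios of low values to the first replicate of their experiment. By the most common ratio, 17 of the 18 lay between 0.986 and 1.01, and Ceapin-A7 replicate 3 was at 0.678. By the ratio at which a library most exceeded the others of its experiment, values ran from 0.511 to 1.48. These ends were Atf6-/- OIR replicates 2 and 3, and PBS replicates 4 and 5 were at 0.599 and 0.536. The 2 estimates disagree, so equal depth was not established. Atf6 itself was at 14.75, 16.05, 14.64, 14.69 and 14.61 FPKM in Atf6+/+ OIR and at 15.59, 13.61, 16.83, 16.29 and 13.57 in Atf6-/- OIR retinas, which overlap, and a stop codon need not lower the mRNA, so this level does not check the labels. In the OIR experiment 2 libraries stood apart from their groups: Atf6+/+ replicate 4 and Atf6-/- replicate 5 each had a level of ciliary genes and a dependence on GC content that lay with the other group. The 5 genes called in that experiment at an adjusted p under 0.05 separated all 10 libraries by genotype, these 2 included. These genes were called for differing between the same labelled groups, so their separation is no independent check of the labels. In the Ceapin-A7 experiment PBS replicates 4 and 5 had summed rod marker levels of 18059 and 17004 FPKM, while the other 8 libraries lay between 22618 and 25113. The counts and medians of the 34 genes are given with and without these libraries.

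Cilium genes are known in general for promoters that hold the X-box, an inverted repeat bound by RFX transcription factors. RefSeq promoter windows of 300 bases, from 250 before to 50 after the annotated start on GRCm38.p6, matched 30 of the 34 genes. The half-site GTTGCC, searched on both strands, was present in 14 of these 30 genes (46.7%), against 12.5% of all 32851 windows and 14.8% of the 12376 genes with a window that were tested in the OIR experiment. A pair of half-sites facing each other, GTTNCC and GGNAAC with 1 to 3 bases between them, was present in 4 of the 30 genes (13.3%), against 0.776% of all windows and 0.97% of the tested genes, and each of these 4 matches also holds the single half-site. The stretches with the paired site are shown to compare its letters between the 4 genes, whose log2 fold changes in Atf6-/- OIR retinas did not share a sign: 0.21 for Tctn3, 0.14 for Tctn1, 0.13 for Bbs7 and -0.11 for Ift57, with p of 0.05 or less for Tctn3 alone. Each is 30 bases long, reads 5′ to 3′ along the strand of the gene, and has the paired site in capitals:
Tctn3 (chr19:40612350-40612379, minus strand): tcccagcgGTTGCCAGGTAACgggaaccac
Tctn1 (chr5:122264411-122264440, minus strand): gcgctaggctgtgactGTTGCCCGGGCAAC
Bbs7 (chr3:36613489-36613518, minus strand): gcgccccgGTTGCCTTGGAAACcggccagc
Ift57 (chr16:49699226-49699255, plus strand): gccctgcgGTTGCCTGGTAACggtggggac

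In Tctn3 the paired site began 140 bases before the start, in Bbs7 121 bases and in Ift57 60 bases before it, and in Tctn1 it began 36 bases after it. The whole 250 bases upstream of the Tctn3 start, shown for context with the paired site in capitals, read as follows:
Tctn3 (chr19:40612232-40612481, minus strand): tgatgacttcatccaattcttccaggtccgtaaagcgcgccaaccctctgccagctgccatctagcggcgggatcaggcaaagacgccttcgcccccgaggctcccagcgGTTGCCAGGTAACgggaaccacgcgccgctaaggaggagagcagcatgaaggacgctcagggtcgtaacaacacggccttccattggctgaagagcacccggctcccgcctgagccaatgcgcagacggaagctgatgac

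Among genes with a single half-site were Ift88, Ift172, Kif3a, Dync2h1 and Bbs1, which are described further on. Their stretches, with the half-site in capitals on either strand, are shown to compare the sequence around it:
Ift88 (chr14:57424080-57424109, plus strand): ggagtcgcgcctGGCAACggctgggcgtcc
Ift172 (chr5:31291097-31291126, minus strand): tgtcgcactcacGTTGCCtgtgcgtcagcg
Kif3a (chr11:53567259-53567288, plus strand): caccccgcaggcGTTGCCccagtctagcgt
Dync2h1 (chr9:7177009-7177038, minus strand): catagcgacggagcttGGCAACtgctgagt
Bbs1 (chr19:4906609-4906638, minus strand): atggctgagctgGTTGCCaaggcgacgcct

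By position, 7 of the 14 genes had their first match at or after the start and 7 before it, as the plot of matches against distance from the start shows. The ATF6 response elements were searched in the same windows. The UPR element TGACGTGG was found in 0 of the 30 genes (0.676% of all windows and 0.953% of tested genes), and the ER stress element, CCAAT and CCACG with 9 bases between them, also in 0 of the 30 (0.119% and 0.178%). These are letter matches in a short window and say nothing on whether a factor binds there or elsewhere.

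**Figure D1:**
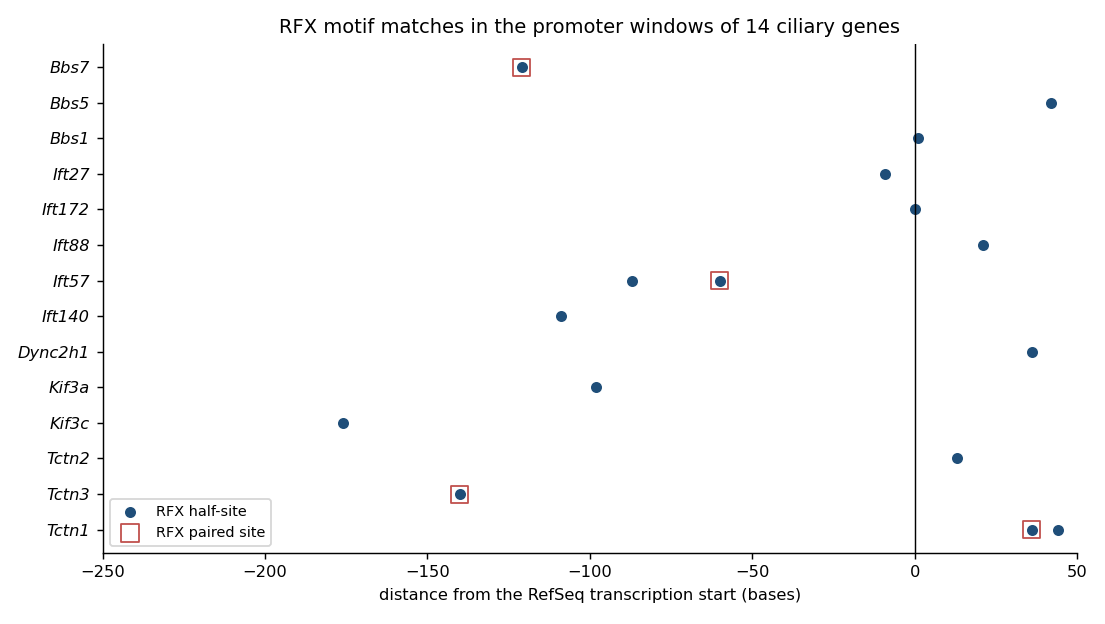
Positions of RFX half-sites (filled circles) and paired sites (open squares) in the promoter windows of the 14 genes that hold one, with the distance in bases from the RefSeq transcription start on the x axis (0 is the first transcribed base) and 1 gene per row on the y axis. The 4 paired sites lie in Bbs7, Ift57, Tctn3 and Tctn1.

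All 34 genes were expressed in every library, and within a role the highest mean in Atf6+/+ OIR retinas was between 1.27 times the lowest, in the transition zone, and 19.5 times, among the BBSome assembly and recruitment genes (the plot of levels by gene and library). In Atf6+/+ OIR retinas the median of the 34 group means was 21.3 FPKM, against 9.14 FPKM over the 15722 genes with a mean above 0.1, and 32 of the 34 lay above the latter. FPKM is divided by transcript length, so levels can be compared between genes within a group. Because retina was taken whole, fewer cells of a type and less RNA per cell cannot be told apart in any of these values.

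**Figure D2:**
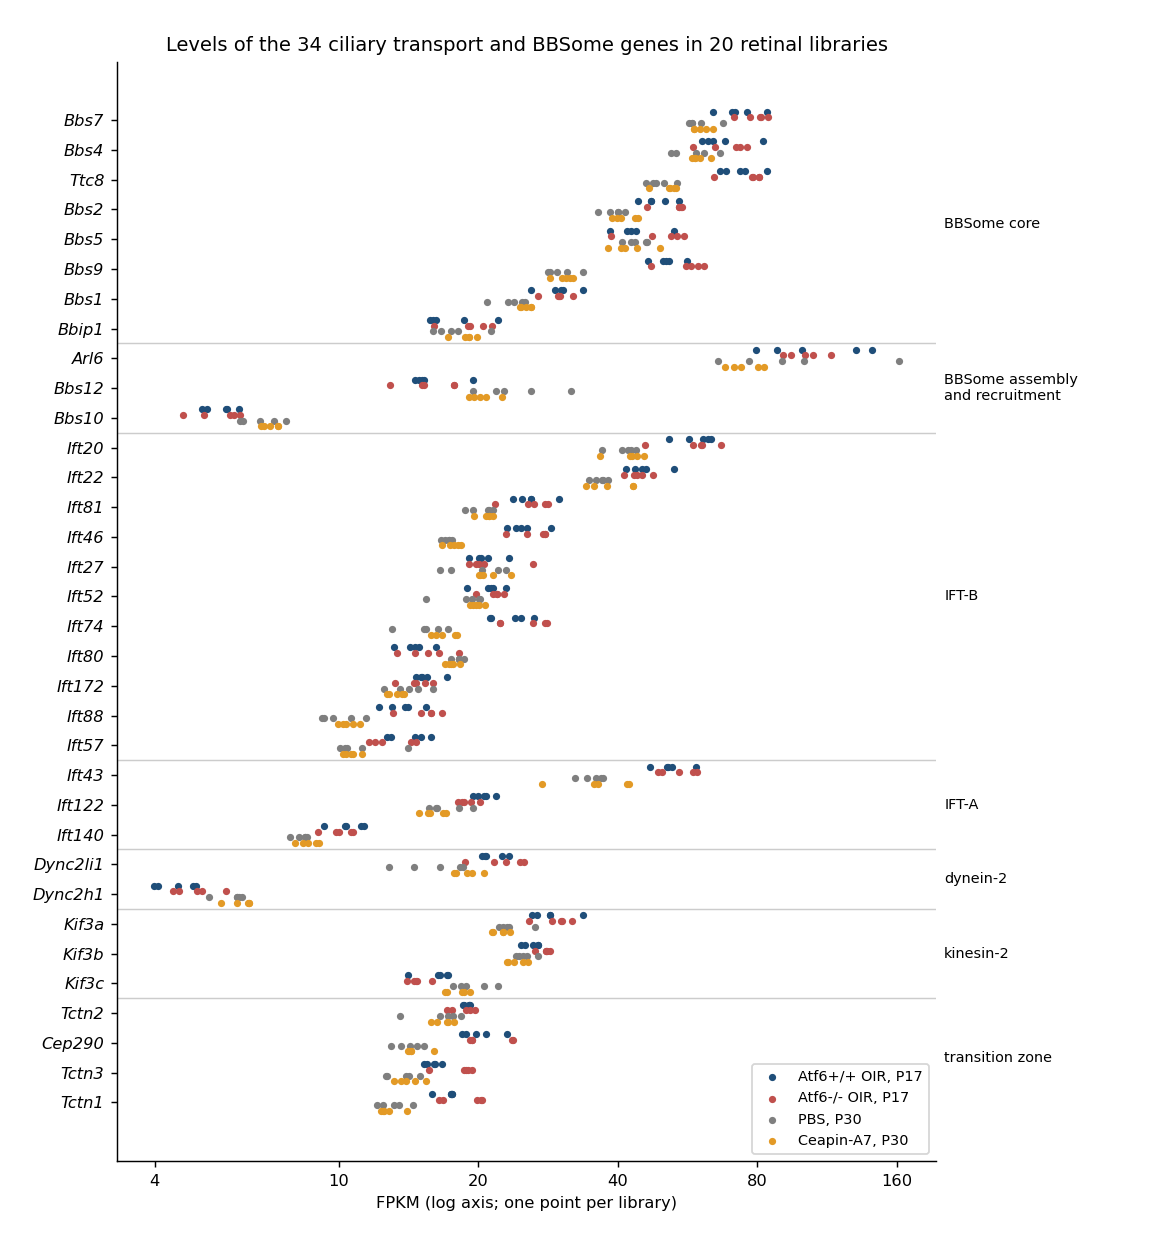
FPKM of the 34 ciliary transport and BBSome genes on a log axis, with 1 point per library, coloured by group (5 libraries each), and genes grouped by role and ordered by mean level. Levels span from 3.99 FPKM for Dync2h1 to 161.76 FPKM for Arl6, and for 11 genes all P30 points lie to the left of all P17 points.

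Among BBSome core subunits the highest in Atf6+/+ OIR retinas were Ttc8 (BBS8), at 73.6 ± 6.78 FPKM (SD, n = 5), and Bbs7, the partner of Bbs2, at 73.3 ± 7.24 FPKM, and the lowest was Bbip1, the smallest subunit, at 17.7 ± 2.69 FPKM, a ratio of 4.15 between highest and lowest. Bbs1, the subunit that binds the GTPase ARL6 at the membrane, was at 29.9 ± 2.77 FPKM. The assembled complex is known to hold its subunits in equal number, while these mRNA levels were unequal.

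Arl6, the small GTPase that recruits the BBSome to membranes, was the highest of the 34 in every group, at 108 ± 27 FPKM in Atf6+/+ OIR, 102 ± 9.73 in Atf6-/- OIR, 99.2 ± 37.4 in PBS and 75.3 ± 6.04 in Ceapin-A7 retinas (SD, n = 5 each). Bbs10, a chaperonin-like protein needed to assemble the BBSome, was at 5.55 ± 0.415 FPKM in Atf6+/+ OIR retinas, 19.5 times below Arl6. Arl6 was also the gene that varied most between libraries of a group: the SD of its log2 values about the group means was 0.26 in the OIR and 0.34 in the Ceapin-A7 experiment, where the medians over the 34 genes were 0.11 and 0.097.

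Of the IFT-B subunits, Ift20, which also works at the Golgi to load membrane cargo, was the highest at 59.2 ± 5.0 FPKM in Atf6+/+ OIR retinas. Ift88, which holds the core of the train together, was the lowest at 13.7 ± 1.19 FPKM, close to Ift57 and to Ift172, the long subunit that contacts membrane and turns the train around, at 15.5 ± 0.967. In Atf6-/- OIR retinas the lowest was Ift57, at 13 ± 1.4 FPKM. Of the IFT-A subunits, which serve the return trip and entry of receptors, Ift43 was at 52.1 ± 4.42 and Ift140 at 10.5 ± 0.821 FPKM in Atf6+/+ OIR retinas.

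Among the motors, the dynein-2 light intermediate chain Dync2li1 was at 21.5 ± 1.30 FPKM and the heavy chain Dync2h1, the ATPase of the retrograde motor, at 4.47 ± 0.43 in Atf6+/+ OIR retinas, the lowest of the 34. The kinesin-2 motor subunits were closer to each other, with Kif3a at 28.7 ± 2.95 FPKM and Kif3c, which can replace Kif3a's partner Kif3b, at 16.2 ± 1.27. The transition zone genes lay within a narrow range. Cep290, a long scaffold of the photoreceptor connecting cilium, was at 20.2 ± 1.85 FPKM and Tctn3, a tectonic protein of the gate, at 15.9 ± 0.559. In PBS retinas the highest and lowest transition zone genes were Tctn2, at 16.7 ± 1.85, and Tctn1, at 13.1 ± 0.927 FPKM.

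The first comparison asked whether loss of Atf6 in OIR retinas went with a difference in these genes. With limma over 15704 genes and Benjamini-Hochberg adjustment, 0 of the 34 were called at an adjusted p under 0.05, where 5 genes were called in all (0.0318%). Before adjustment, 5 of the 34 had a p of 0.05 or less and were higher in Atf6-/- OIR retinas, Tctn3, Kif3b, Ift88, Bbs9 and Bbs2, and 0 were lower, against 6.94% of all genes higher and 5.81% lower. On FPKM as deposited, Tctn3 alone of the 34 was higher at that threshold and 0 were lower, against 3.71% of all genes higher and 8.43% lower. The groups of libraries did not overlap for 2 genes, Tctn3 and Kif3b, both higher after rescaling by library (1.11% of all genes higher and 0.694% lower). The log2 fold change was above 0 for 25 of the 34, with a median of 0.06, and the median over all genes was 0.0028.

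Tctn3 had the smallest p of the 34. It was at 15.26, 16.12, 16.07, 16.66 and 15.47 FPKM in Atf6+/+ OIR retinas and at 18.99, 18.65, 18.80, 19.39 and 15.67 FPKM in Atf6-/- OIR retinas. Replicates 1 to 4 of the knockout lay above every Atf6+/+ library as deposited, while replicate 5 lay among them, and after rescaling by library it too lay above. The log2 fold change was 0.21 ± 0.056 (SE; p = 0.00243, adjusted p = 0.358 by limma) and an exact permutation test, two-sided, returned p = 0.00794, the smallest that 5 against 5 libraries can give. Over the alternative settings it ran from 0.19 to 0.31, with unadjusted p from 5.09e-05 to 0.0144 by limma.

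Kif3b, the partner of Kif3a in the anterograde motor, was at 24.71, 26.84, 26.29, 26.95 and 25.19 FPKM in Atf6+/+ OIR and at 28.06, 27.97, 28.10, 28.54 and 26.54 in Atf6-/- OIR retinas. As deposited, replicate 5 of the knockout came down to the Atf6+/+ range, and after rescaling by library it lay above. Its log2 fold change was 0.12 ± 0.046 (SE; p = 0.0249, adjusted p = 0.364 by limma; exact permutation p = 0.00794), a small difference in the gene with the tightest replicates of the 34.

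Ift88 was at 12.23, 13.03, 13.91, 15.38 and 14.10 FPKM in Atf6+/+ OIR and at 15.03, 15.83, 16.72, 15.84 and 13.06 in Atf6-/- OIR retinas. The groups overlapped through Atf6+/+ replicate 4 and knockout replicate 5. The log2 fold change was 0.17 ± 0.069 (SE; p = 0.0276, adjusted p = 0.364 by limma; exact permutation p = 0.0317), and it was 0.094 (p = 0.095 by limma) after correction for GC content.

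Bbs9, a scaffold subunit of the BBSome, was at 46.59, 50.12, 51.62, 56.48 and 50.91 FPKM in Atf6+/+ OIR and at 57.70, 61.51, 56.16, 59.46 and 47.07 in Atf6-/- OIR retinas. Bbs2, which pairs with Bbs7 in the head of the complex, was at 44.28, 47.25, 47.12, 54.17 and 50.65 FPKM and at 54.28, 54.69, 54.33, 54.98 and 46.21 FPKM. For Bbs9 the same 2 libraries made the overlap, and for Bbs2 knockout replicate 5 alone did. The log2 fold changes were 0.15 ± 0.063 for Bbs9 and 0.14 ± 0.059 for Bbs2 (SE; adjusted p = 0.367 and 0.376 by limma), with exact permutation p = 0.0476 for each.

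**Figure D3:**
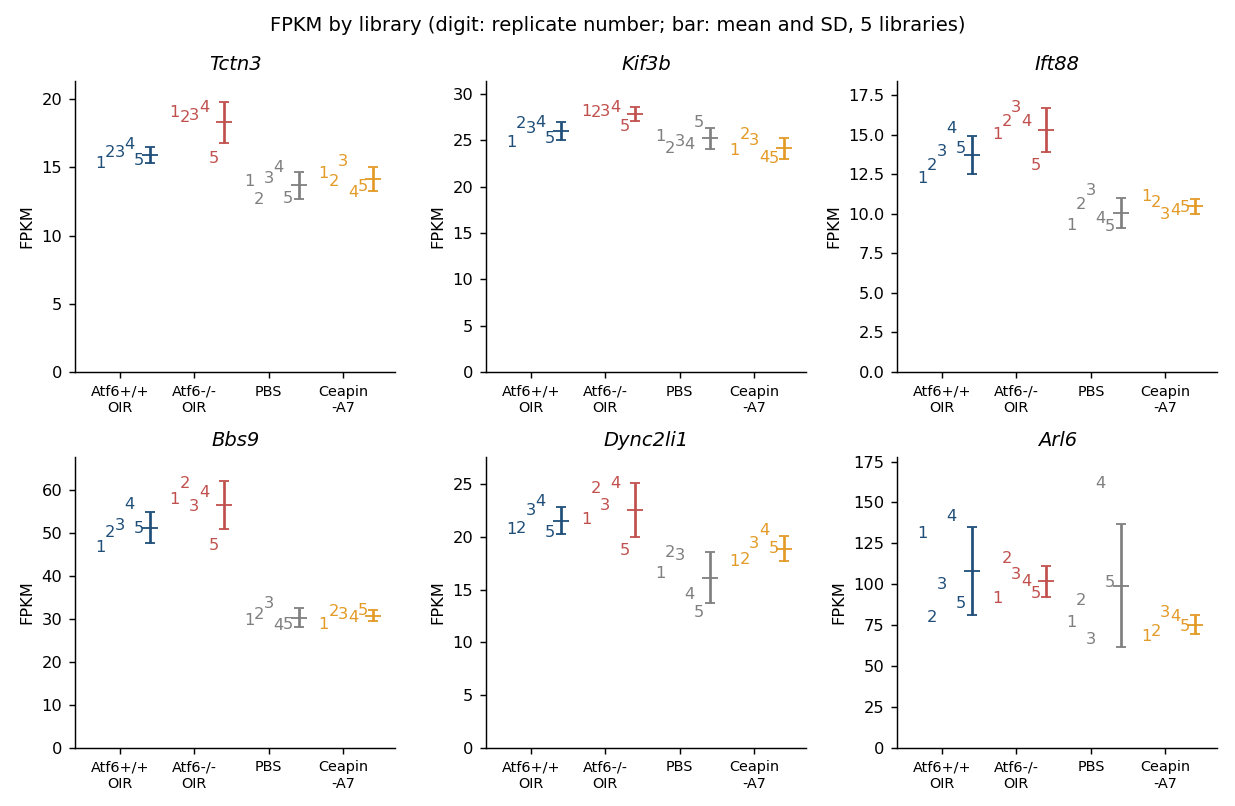
FPKM of Tctn3, Kif3b, Ift88, Bbs9, Dync2li1 and Arl6 in every library, with digits for replicate numbers, a bar for mean and SD of 5 libraries per group, and y axes from 0. In Tctn3, replicates 1 to 4 of Atf6-/- OIR lie between 18.65 and 19.39 FPKM, above all Atf6+/+ OIR libraries, and in Arl6 PBS replicate 4 lies at 161.76 FPKM.

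By role, all 8 BBSome core subunits had a log2 fold change above 0 in Atf6-/- OIR retinas, with a median of 0.13 and 2 at an unadjusted p of 0.05 or less, while 7 of 8 were above 0 on FPKM as deposited and 6 of 8 after GC correction. The median was 0.12 over the 2 dynein-2 subunits, 0.11 over the 4 transition zone genes, 0.05 over the 3 kinesin-2 motors, 0.04 over the 11 IFT-B subunits and -0.04 over the 3 IFT-A subunits. Among the 9 genes below 0 were Ift172 at -0.05, Ift140 at -0.04, Arl6 at -0.04 and Kif3c at -0.12, all with unadjusted p above 0.05 by limma. The remaining genes named for their place in the pathway had values near 0 or slightly above, with Bbs1 at 0.01, Kif3a at 0.05, Ttc8 at 0.07, Cep290 at 0.08 and Dync2h1 at 0.15.

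**Figure D4:**
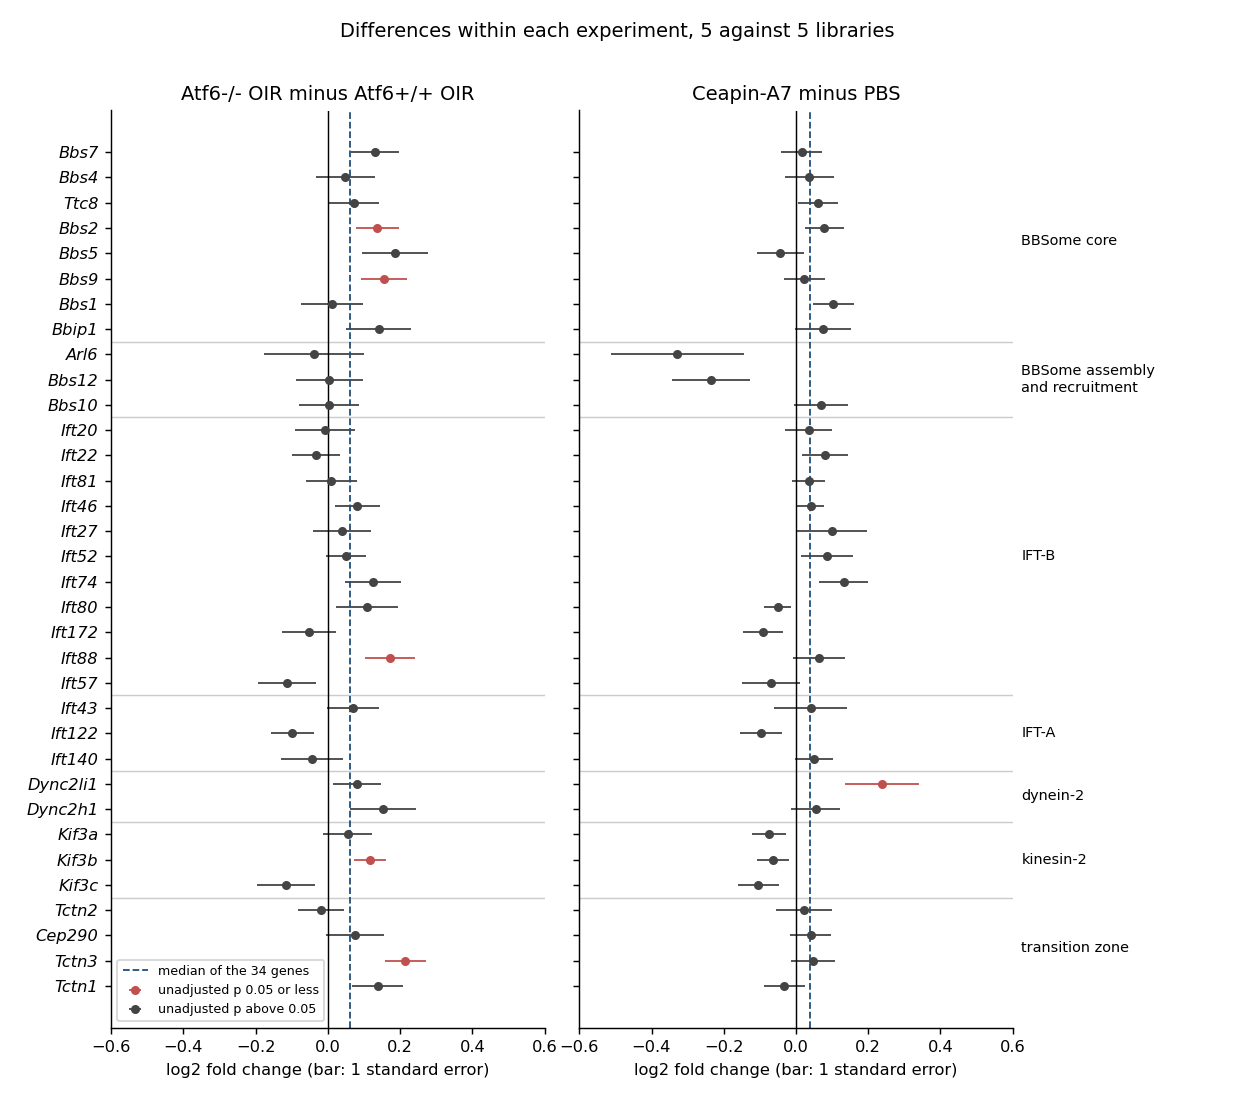
Log2 fold change of each of the 34 genes in the OIR experiment (left) and the Ceapin-A7 experiment (right), with bars of 1 standard error from limma, red for an unadjusted p of 0.05 or less, and a dashed line at the median of the 34 genes. The medians are 0.06 and 0.04, 5 genes are red on the left and Dync2li1 alone on the right.

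The OIR values moved with the GC content of the libraries. A library's slope of log2 level on GC content over all genes ran from -0.11 to 0.14 per 10 percentage points in Atf6+/+ OIR (median 0.094) and from -0.20 to 0.14 in Atf6-/- OIR retinas (median -0.11). In Atf6+/+ replicate 4 the slope was -0.11 and in knockout replicate 5 it was 0.14, each on the side of the other group. The median log2 deviation of the 34 genes in a library ran the same way: it was -0.096, -0.082, -0.053, 0.059 and 0.012 in the Atf6+/+ libraries and 0.054, 0.046, 0.052, 0.11 and -0.042 in the Atf6-/- libraries, in the order of replicates 1 to 5.

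The 34 genes had a median transcript GC content of 47.9%, the genes tested 50.4%, and 23 of the 34 lay below the latter. Genes of low GC content as a class were higher in Atf6-/- OIR retinas. With genes split into 5 equal bands by GC content, in the band of lowest GC the median log2 fold change over 3047 genes was 0.11, and over the 9 ciliary genes in it 0.11. In the next band it was 0.055 over all and 0.054 over 9 ciliary genes. In the middle band it was -0.0051 over all and 0.041 over 12 ciliary genes, and in the band above that it was -0.062 over all and -0.0062 over 4, so the ciliary genes lay at the level of other genes of like GC content in the 2 bands of lowest GC and above it in the 2 bands that followed, and the band of highest GC held none of them. After GC correction the median over the 34 was 0.017 and 19 of 34 were above 0, while Tctn3 was at 0.24, Bbs2 at 0.14, Bbs9 at 0.13 and Kif3b at 0.10.

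**Figure D5:**
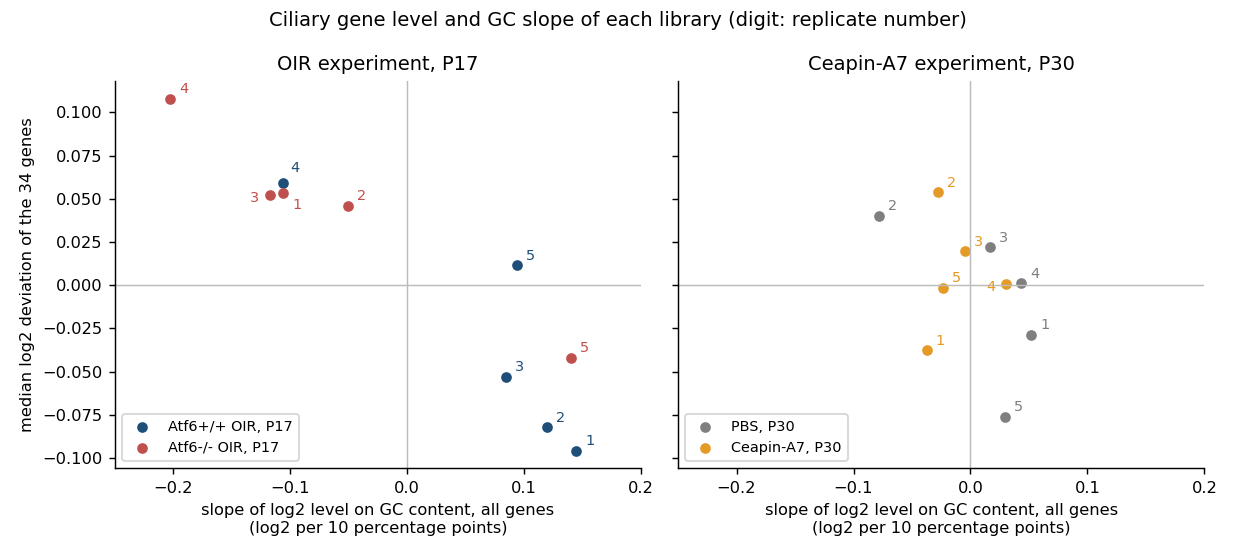
Median log2 deviation of the 34 genes in each library against that library's slope of log2 level on GC content over all genes (log2 per 10 percentage points), for the OIR (left) and Ceapin-A7 (right) experiments, with digits for replicate numbers. On the left, Atf6+/+ replicate 4 lies with the knockout libraries and Atf6-/- replicate 5 with the Atf6+/+ libraries.

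With Atf6+/+ replicate 4 and Atf6-/- replicate 5 left out together, 8 of the 34 were called at an adjusted p under 0.05 by limma, Bbip1, Bbs2, Bbs5, Bbs7, Bbs9, Ift88 and Tctn3 higher and Kif3c lower. This is 23.5% of the 34, where 3909 genes, 24.9% of all tested, were called. With GC correction as well, 5 were called, Bbs2, Bbs9, Tctn1 and Tctn3 higher and Kif3c lower, which is 14.7% of the 34 where 1918 genes, 12.2% of all, were called. With all libraries kept and weighted by their own spread, 6 were called, Bbs2, Bbs5, Bbs9, Ift88 and Tctn3 higher and Kif3c lower, which is 17.6% of the 34 where 2769 genes, 17.6% of all, were called. Those 2 libraries had weights of 0.345 and 0.346, the lowest of the 10. Under these 3 settings the share of ciliary genes called was thus near that of all genes. The 2 libraries were picked because they lay with the other group, so counts without them are no independent evidence. The weights were estimated from each library's distance from the means of the same labelled groups, so the weighted counts are no independent evidence either.

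Tctn1, a tectonic protein like Tctn3, was called only with both changes made. It was at 17.56, 17.47, 17.50, 15.86 and 17.47 FPKM in Atf6+/+ OIR and at 16.79, 20.29, 20.32, 19.86 and 16.44 in Atf6-/- OIR retinas. Knockout replicates 2, 3 and 4 lay above all Atf6+/+ libraries, and replicates 1 and 5 lay within their range. The log2 fold change was 0.14 ± 0.071 (SE; adjusted p = 0.417 by limma) with every library, 0.22 (adjusted p = 0.417 by limma) with GC correction, 0.12 (adjusted p = 0.16 by limma) without the 2 libraries, and 0.27 (adjusted p = 0.0222 by limma) with both.

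Marker genes of several cell types moved beside these values. All 11 rod markers and all 7 cone markers had a log2 fold change above 0 in Atf6-/- OIR retinas, with medians of 0.12 and 0.11, and 3 rod and 2 cone markers had an unadjusted p of 0.05 or less. Without Atf6+/+ replicate 4 and Atf6-/- replicate 5 the medians were 0.11 and 0.19. Of 6 Muller glia markers 5 were above 0, with a median of 0.19 and Apoe alone at that threshold, and of 6 endothelial markers 5 were below 0, with a median of -0.20 and Egfl7 alone at that threshold. The summed rod level ran from 19629 to 22184 FPKM in Atf6+/+ OIR and from 21175 to 23911 in Atf6-/- OIR libraries. Of 7 markers of the pigment epithelium, which is not part of the neural retina, 5 were higher at an unadjusted p of 0.05 or less, with a summed level of 17.16 to 104.94 FPKM in Atf6+/+ and 64.86 to 292.37 FPKM in Atf6-/- OIR libraries. Of 7 lens fibre markers 5 were lower, with a summed level of 1.83 to 348.63 FPKM in Atf6+/+ and 0.97 to 2.71 FPKM in Atf6-/- OIR libraries. The part of these markers in the values of the ciliary genes was not tested.

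The second comparison asked whether Ceapin-A7 went with a difference in P30 retinas. Of the 34 genes, 0 were called at an adjusted p under 0.05 by limma, where 0 of 15408 genes were called (0%). Before adjustment, 1 had a p of 0.05 or less and was higher after Ceapin-A7, Dync2li1, and 0 were lower, against 5.04% of all genes higher and 5.31% lower. On values rescaled to the same sum, Dync2li1 was higher and Bbs12 and Ift80 lower at that threshold, against 2.96% of all genes higher and 8.07% lower. The groups overlapped for all 34 (0.785% of all genes did not overlap and were higher, and 0.688% lower). The median log2 fold change over the 34 was 0.04, with 23 above 0, and over all genes it was 0.00089.

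Dync2li1 was at 16.50, 18.55, 18.24, 14.52 and 12.83 FPKM in PBS and at 17.68, 17.87, 19.38, 20.61 and 18.92 in Ceapin-A7 retinas. The low values were those of PBS replicates 4 and 5, and the other 3 PBS libraries overlapped with Ceapin-A7. The log2 fold change was 0.24 ± 0.10 (SE; p = 0.0383, adjusted p = 0.472 by limma; exact permutation p = 0.0794). Without PBS replicates 4 and 5 it was 0.071.

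Arl6 was at 76.79, 90.33, 65.90, 161.76 and 101.01 FPKM in PBS and at 68.32, 71.29, 82.73, 80.20 and 73.96 in Ceapin-A7 retinas. PBS replicate 4 stood far above the rest. The log2 fold change was -0.33 ± 0.18 (SE; p = 0.102, adjusted p = 0.523 by limma; exact permutation p = 0.143), and without PBS replicates 4 and 5 it was -0.054. Bbs12, a chaperonin-like BBSome assembly factor named here after its values were seen, was also highest in PBS replicate 4, with 22.76, 25.98, 19.45, 31.77 and 21.79 FPKM in PBS and 19.05, 20.21, 20.75, 22.51 and 19.54 in Ceapin-A7 retinas (log2 fold change -0.23 ± 0.11, SE; p = 0.0506, adjusted p = 0.481 by limma; exact permutation p = 0.0952), and without PBS replicates 4 and 5 its log2 fold change was -0.16.

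The other complexes differed little after Ceapin-A7. The BBSome core had a median log2 fold change of 0.049, with Bbs1 at 0.10, Bbs2 at 0.078, Ttc8 at 0.062 and Bbs9 at 0.023. The 11 IFT-B subunits had a median of 0.04, with Ift88 at 0.063 and Ift172 at -0.092. All 3 kinesin-2 motors were below 0, Kif3c at -0.10, Kif3a at -0.074 and Kif3b at -0.063, and the transition zone genes lay between -0.033 and 0.048, with Cep290 at 0.041 and Tctn3 at 0.048. Every one of these had an unadjusted p above 0.05 by limma. The same libraries touch the median: leaving out PBS replicates 4 and 5 brought it to -0.000529, with 16 of 34 above 0. Beside it, all 11 rod and all 7 cone markers were above 0 in the full set, with medians of 0.15 and 0.23, and 1 rod and 5 cone markers had an unadjusted p of 0.05 or less. Without PBS replicates 4 and 5, 4 of 11 rod and 7 of 7 cone markers were above 0, with medians of -0.025 and 0.12, and 0 rod and 1 cone markers passed that p. Their part in the result was not tested.

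The 2 experiments were set against each other in a fit of all 20 libraries with a term for the difference of the differences. Of the 34 genes, 0 had an adjusted p under 0.05 for this term by limma (0.032% of 15628 genes), 1 had an unadjusted p of 0.05 or less with the higher value in OIR (5.39% of all genes) and 0 with the lower (3.79%). The gene was Kif3b, whose log2 fold change was 0.12 in the OIR and -0.063 in the Ceapin-A7 experiment, a difference of 0.18 ± 0.058 (SE; adjusted p = 0.42 by limma). For Tctn3 the difference was 0.17 ± 0.081 (SE; adjusted p = 0.544 by limma). The experiments differ in age, oxygen and injection as well as in how ATF6 was targeted, by knockout or by a block of its activation, and these cannot be told apart.

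The levels in the 2 experiments were also set side by side. Of the 34 genes, 11 were higher in every P17 OIR library than in every P30 injected library, against 13.4% of 15631 genes, and 0 were higher in every P30 library, against 14.5%. These were Bbs9, Ift74, Ttc8, Ift46, Ift43, Cep290, Ift88, Ift20, Tctn1, Ift81 and Bbs2. The 2 experiments have separate tables that list different numbers of genes, and no source used here says whether they shared a sequencing run. Age, hyperoxia and injection cannot be told apart, so no test was made.

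Bbs9 had the largest ratio, with a mean of 53.8 FPKM over the 10 OIR libraries and 30.5 over the 10 injected ones (1.76). Ift74 and Ttc8, at 24.4 against 16.2 FPKM and 75 against 50.2 FPKM, followed with ratios of 1.51 and 1.49, and Cep290 was at 20.6 against 14.4. In each of these, every P17 library lay above every P30 library. In the other direction, Bbs12 was at 15.8 against 22.4 FPKM (0.705), Dync2h1 at 4.69 against 6.03 (0.778), Bbs10 at 5.53 against 6.95 (0.796), Kif3c at 15.5 against 18.8 (0.827) and Ift80 at 15.1 against 17.8 (0.849), with overlap of the libraries for each. On FPKM as deposited, Bbs10 and Bbs12 thus lay on the other side from the BBSome core. The lowest ratio in the core was 1.01, for Bbip1, at 18.5 against 18.3 FPKM with overlap of the libraries. These ratios are not given under other scalings.

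The median ratio of P17 to P30 levels was 1.22 over the 34 genes and 1.01 over all genes. It was 1.24 over 31 further transition zone genes, 1.42 over 20 genes of the motile axoneme and 1.18 over 23 genes of the photoreceptor cilium, and 0.902 over 19 genes of lipidated cargo and small GTPases. Rod and cone markers had median ratios of 1.02 and 1.03, but single markers went both ways, from 0.503 for Rom1 to 1.53 for Sag among 11 rod markers and from 0.578 for Arr3 to 1.56 for Pde6c among 7 cone markers. Markers of other cells differed more, with median ratios of 2.15 for endothelial cells, 2.06 for microglia, 1.13 for Muller glia, 0.55 for pigment epithelium and 0.03 for lens fibres. P17 and P30 libraries overlapped for all 7 pigment epithelium and all 7 lens fibre markers. The summed lens fibre level ran from 5.92 FPKM in PBS replicate 3 to 8018 FPKM in Ceapin-A7 replicate 1 among the injected libraries. Their part in the levels of the ciliary genes was not tested.

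Other genes of the pathway, on lists chosen by function, also gave 0 calls at an adjusted p under 0.05 by limma in either experiment. Of 21 further IFT, dynein-2 and kinesin-2 subunits, 17 had a log2 fold change above 0 in Atf6-/- OIR retinas (median 0.068) and 1 had an unadjusted p of 0.05 or less, the dynein light chain Dynlt1b, at 0.35 ± 0.15 (SE). After Ceapin-A7, 2 were higher and 1 lower at that threshold: Wdr34, a dynein-2 intermediate chain, was at 17.5 ± 1.24 FPKM in PBS and 19.6 ± 0.902 in Ceapin-A7 retinas, Ttc30b, an IFT-B subunit, at 11.8 ± 0.963 and 13.1 ± 0.667, and Tulp3, the adaptor that hands receptors to IFT-A, at 9.84 ± 1.87 and 7.49 ± 0.592 (SD, n = 5 each). Without Atf6+/+ replicate 4 and Atf6-/- replicate 5, 6 of the 21 were higher and 2 lower in OIR at that threshold. At an adjusted p under 0.05, 6 were then called by limma, where 24.9% of all genes were. Without PBS replicates 4 and 5, 0 were higher and 1 lower after Ceapin-A7, with a median of -0.0023. Of 10 further Bardet-Biedl genes 0 passed in either experiment with all libraries kept, with medians of 0.11 and 0.059. In OIR, 5 were higher and 1 lower without the same OIR libraries.

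Among 31 further transition zone genes, 3 were higher and 1 lower in Atf6-/- OIR and 2 were higher after Ceapin-A7 at an unadjusted p of 0.05 or less by limma. Tmem218 had the smallest p in both, at log2 fold changes of 0.23 ± 0.082 and 0.17 ± 0.052 (SE). Without Atf6+/+ replicate 4 and Atf6-/- replicate 5, 12 were higher and 3 lower in OIR, and without PBS replicates 4 and 5, 1 was higher after Ceapin-A7. Of 19 genes of lipidated cargo transport and small GTPases, 3 were higher and 0 lower in each experiment with all libraries kept. Without the same libraries, 3 were higher and 3 lower in OIR, and 1 was higher and 0 lower after Ceapin-A7. Pde6d, which carries prenylated phototransduction proteins to the outer segment, was at 96.3 ± 8.53 FPKM in Atf6+/+ and 111 ± 4.46 in Atf6-/- OIR retinas, and at 109 ± 8.25 in PBS and 121 ± 5.85 in Ceapin-A7 retinas (SD, n = 5 each), with adjusted p = 0.358 and 0.472 by limma.

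Of 7 ciliary transcription factors tested, 4 had a log2 fold change above 0 in Atf6-/- OIR retinas and 3 below (median 0.02). Rfx3 and Rfx7, members of the family that binds the X-box, were higher at an unadjusted p of 0.05 or less. Their log2 fold changes were 0.30 ± 0.11 and 0.17 ± 0.07 (SE). Rfx2, of the same family, was at -0.44 ± 0.24 (SE) and did not pass that threshold. Leaving out Atf6+/+ replicate 4 and Atf6-/- replicate 5 gave 2 higher and 3 lower at that threshold, with a median of -0.041. Rfx3 was at 3.02 ± 0.193 FPKM in Atf6+/+ and 3.74 ± 0.577 in Atf6-/- OIR retinas. After Ceapin-A7, Glis2 and Rfx2 were lower at that threshold, with log2 fold changes of -0.36 ± 0.11 and -0.86 ± 0.31 (SE), and Rfx3 was at 0.022. None had an adjusted p under 0.05 by limma. With all libraries kept, the motile axoneme, the photoreceptor cilium and the cytoplasmic motors gave medians between -0.058 and 0.039 in the 2 experiments. They had 0 to 2 genes past an unadjusted p of 0.05 in either direction. Without Atf6+/+ replicate 4 and Atf6-/- replicate 5, 2 of the 18 cytoplasmic motor genes were higher and 7 lower in OIR.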

How the data were processed

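The authors deposited FPKM per gene to 2 decimals, with separate tables for each experiment. The reads were stranded and paired-end, the aligner was HISAT2 (v2.0.4) on GRCm39, and RSEM (v1.2.18) gave the expression estimates. For their own comparisons the authors used DESeq2 (v1.4.5). Read trimming was not given in the sources used here. No counts were used here, so no count model was fitted and no counting interval is given.

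Within each experiment, libraries were scaled by median-of-ratios factors, and log2(value + 0.1) of genes with a mean FPKM above 0.1 was compared with limma (3.58.1, eBayes with trend; R 4.3.3), with Benjamini-Hochberg adjustment over all genes tested. Fold changes are on this scale. The difference between experiments was fitted on all 20 libraries. Exact two-sided permutation tests over libraries were computed for single genes. In simulated data 91% (OIR) and 92.5% (Ceapin-A7) of 200 genes changed 2-fold were called. No rate is given for smaller changes. Every ciliary gene described here changed less than 2-fold, with a log2 fold change of 0.21 for Tctn3 in OIR. These rates therefore do not say how often changes of the size seen would be called. GC content was taken from GENCODE M21 transcripts (GRCm38), matched by symbol for 97% of genes tested, and promoter windows from RefSeq (GRCm38.p6).

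The genes, roles and lists, and the promoter motifs, were chosen with earlier results of these data known. Named genes are those with an unadjusted p of 0.05 or less in either experiment, the highest and lowest of each role, Bbs1, Ttc8, Arl6, Ift88, Ift172, Ift140, Dync2h1, Kif3a and Cep290, and up to 3 genes of smallest p per list. Nothing ties libraries to separate animals beyond their labels, so p-values measure the spread between these libraries. Replicate numbers were not used as pairs in the main fits. Correlations of deviations between same-numbered libraries ran from -0.258 to 0.31. Libraries of unlike number were not compared, so whether the numbers pair samples is not known. Alternatives were other pseudocounts, filters, scalings, weights, blocks, GC correction and leaving out libraries.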

Additional observations from a re-analysis of the deposited data

Results flagged for a closer look

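In groups of 5 libraries, the highest or lowest value was set against the group's range by Dixon's criterion for 34 genes in 4 groups. Of these 136 groups, 13 held a library that stood off, and chance alone gives about 1 in 20. Atf6-/- OIR replicate 5 was low for Bbs2 at 46.2 FPKM, Kif3b at 26.5, Tctn3 at 15.7 and Ttc8 at 64.6. Atf6+/+ OIR replicate 4 was high for Bbs12 at 19.4 FPKM and low for Kif3c at 14.1 and Tctn1 at 15.9. These 2 libraries thus gave 7 of the 13, and the report gives the counts of called genes with and without them.

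PBS replicate 5 was low for Dync2h1 at 5.24 FPKM and high for Kif3a at 26.5, and PBS replicate 4 was high for Ift57 at 14.1. Atf6-/- OIR replicate 2 was high for Ift27 at 26.3 FPKM. Ceapin-A7 replicate 2 was high for Cep290 at 16 FPKM. Ceapin-A7 replicate 3, at a relative depth of 0.678 by both estimates, was low for Ttc8 at 46.7.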

How the results depend on the processing

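All 34 genes passed every filter tried. With all libraries kept, no ciliary gene passed an adjusted p of 0.05 in either experiment or for their difference under any setting except array weights in OIR, which called 6. Leaving out Atf6+/+ replicate 4 and Atf6-/- replicate 5 together, added after seeing the data, called 8, and 5 with GC correction. Leaving out any 1 library called 0.

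The number of genes higher in Atf6-/- OIR retinas at an unadjusted p of 0.05 or less, 5 as reported, was 1 on FPKM as deposited and on values rescaled to the same sum, 3 after quantile normalization, 11 with array weights and 14 without the 2 libraries, and it ran from 1 (without Atf6+/+ replicate 1) to 8 (without Atf6+/+ replicate 4) when 1 library was left out. Over all genes the share higher, 6.94% as reported, moved as well, to 3.71% on FPKM as deposited, 3.63% on values rescaled to the same sum, 7.6% after quantile normalization, 17.4% with array weights and 18.4% without the 2 libraries. The number lower, 0 as reported, was 2 with array weights and without the 2 libraries, 1 with GC correction, with and without them, and 0 to 1 with 1 library left out. The share of all genes lower, 5.81% as reported, was 19.2% with array weights and 20.4% without the 2 libraries. With GC correction it was 4.83% with them and 14.2% without. With 1 library left out, the share of all genes ran from 3.9% to 11.8% higher and from 3.05% to 13.7% lower. The median, 0.06, ran from 0.017 with GC correction to 0.12 without the 2 libraries, and from 0.04 to 0.097 with 1 library left out.

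After Ceapin-A7 the number higher, 1 as reported, was 0 in limma without trend and without PBS replicates 4 and 5, 2 with array weights, and 0 to 3 with 1 library left out. Over all genes the share higher, 5.04% as reported, was 4.45% without trend, 2.61% without the 2 PBS libraries and 4.75% with array weights. It ran from 3.2% to 8.09% with 1 library left out. The number lower, 0 as reported, was 1 with the stricter filter, in the fit of all 20 libraries and with GC correction, 2 on values rescaled to the same sum, and 0 to 2 with 1 library left out. The share of all genes lower, 5.31% as reported, was in that order 5.6%, 4.38%, 5.65% and 8.07%. With 1 library left out it ran from 3.01% to 8.31%. The median, 0.04, was -8.15e-05 on values rescaled to the same sum and -0.000529 without PBS replicates 4 and 5, and 0.0074 to 0.056 with 1 library left out. For the difference between experiments, 2 ciliary genes passed an unadjusted p of 0.05 by limma with a pseudocount of 1. With GC correction 3 passed, and with array weights 9. All had the higher value in OIR, and 0 had the lower. The share of all genes for this difference is not given under these settings, so these counts cannot be read against it. In the OIR comparison, array weights also raised the shares of all genes at that threshold, to 17.4% higher and 19.2% lower. The number higher in every P30 library, 0 as reported, was 1 with median-of-ratios factors over the 20 libraries and 2 on values rescaled to the same sum. The causes of these changes were not tested.

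With the replicate number as a block, the counts at an unadjusted p of 0.05 or less were 2 higher and 0 lower in OIR. Over all genes 5.74% were higher and 6.79% lower. After Ceapin-A7 they were 2 higher and 1 lower, against 5.43% and 5% of all genes. With GC correction as well, 2 were higher and 0 lower in OIR, against 4.29% and 4.36% of all genes. After Ceapin-A7 with both, 1 was higher and 1 lower, against 5.77% and 5.1%. Whether the replicate numbers pair the libraries is not known.

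Of the 23 genes followed one by one, 0 to 4 changed sign under an alternative in OIR and 0 to 8 after Ceapin-A7, and none of these had an unadjusted p of 0.05 or less on either side. The tables hold no read totals, so no counting error could be set beside these values.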
